A study of Arabidopsis thaliana with 10 samples.

Results

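The small (40S) subunit of the cytosolic ribosome is built from a ribosomal RNA and a set of RPS proteins, and in Arabidopsis thaliana most of these proteins are encoded by several paralogous genes. The genes examined here are 57 nuclear genes for the proteins RPSa to RPS20. They were taken from a list of gene identifiers, not from any measured value. They fall into 22 protein families, 21 of which have several paralogs in the list. The list does not hold every copy, and a family below means its listed genes only. All 57 had a row in the tables of 27394 genes and 31189 transposable elements (TEs) and a transcript in the RefSeq annotation. Other listed 40S genes, of which 31 had a row, 116 genes of the large (60S) subunit and 10 translation factors served for comparison. So did 11412 other protein-coding genes with transcripts of 717 to 1653 bases, the range of the members.

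In growing tissues, ribosomal protein genes are among the most highly expressed genes and are transcribed together, since the ribosome needs its proteins in equal number. A pollen grain consists of a large vegetative cell, which makes the pollen tube, with the sperm cells inside it. Pollen stores ribosomes and mRNA during maturation for use after germination.

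The mRNA of pollen from plants of the Col-0 ecotype, grown in a greenhouse under long days, was sequenced in 5 groups of 2 libraries. WT Col-0 carried no transgene. pLAT52::RTL1 and pMGH3::RTL1 carried pLAT52::RTL1-Myc or pMGH3::RTL1-Myc, which express RTL1, an RNase III-like protein that suppresses the formation of small interfering RNAs, from the promoter of LAT52 (vegetative cell and its precursor) or of the histone gene MGH3 (sperm lineage). WT FTL and nrpd1a-3 FTL were sorted by fluorescence from the same kind of plant, heterozygous for the nrpd1a-3 allele and for a DsRed transgene. WT FTL grains carried pLAT52::DsRed, a vegetative cell marker linked to the wild-type NRPD1A allele. nrpd1a-3 FTL grains lacked the marker and carried the nrpd1a-3 allele of NRPD1A, the gene for the largest subunit of RNA polymerase IV. The unsorted groups and the sorted groups are referred to as the RTL1 experiment and the FTL experiment. The transgenic lines of a construct were independent, so the spread between its libraries can include a difference between lines. In whole grains, fewer cells of a type and less RNA per cell cannot be told apart.

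The libraries held 43490027 to 53471964 reads over genes and TEs. All 8 sperm cell markers and all 7 vegetative cell markers examined had reads in every library. Of the 5 tapetum and young anther markers, A9, MS1 and LTP12 were at 0 throughout, AMS had 0 to 35 reads and DYT1 had 0 to 9. AMS was highest in pLAT52::RTL1, at 35 and 34 reads. The sum of the 8 leaf markers, in RPM (reads scaled to the library's total over genes and TEs), was 3.68 and 4.58 for WT Col-0, 7.38 and 11.2 for pLAT52::RTL1, 6.46 and 7.94 for pMGH3::RTL1, 1.94 and 0.774 for WT FTL, and 11.7 and 0.542 for nrpd1a-3 FTL. Replicates 1 and 2 of nrpd1a-3 FTL thus stood apart in these markers, as they did in the members. Between 68.8% and 94.7% of the members with over 20 reads had an even count, as results when both mates of a read pair are counted, so the number of fragments was lower than the number of reads. The floor that a count of 0 allows, 3 reads, covers counting error only.

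Upstream sequences of 2 pairs of paralogs are shown because in each pair 1 gene held most of the reads of its family and the other had few. Each run ends at the base before the RefSeq transcript start on TAIR10.1 and overlaps no other annotated gene. Capitals mark matches, on either strand, to the site II elements TGGGCC and TGGGCT, which are known from promoters of plant ribosomal protein genes, as is the telo box (AAACCCTA), which none of these runs holds. TGGGCCCA holds TGGGCC on both strands and counts as 2 matches.

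RPS3a, AT3G04840 (high), chr3:1329471-1329570, plus strand: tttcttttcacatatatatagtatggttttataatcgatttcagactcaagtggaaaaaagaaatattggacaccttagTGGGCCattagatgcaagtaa
RPS3a, AT4G34670 (low), chr4:16548500-16548599, plus strand: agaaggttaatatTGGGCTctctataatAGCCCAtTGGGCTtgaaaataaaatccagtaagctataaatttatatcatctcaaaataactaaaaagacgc
RPS15, AT5G09510 (high), chr5:2956684-2956833, minus strand: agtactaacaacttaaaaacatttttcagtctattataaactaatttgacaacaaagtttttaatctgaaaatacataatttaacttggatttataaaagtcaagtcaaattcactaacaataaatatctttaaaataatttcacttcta
RPS15, AT1G04270 (low), chr1:1143131-1143280, minus strand: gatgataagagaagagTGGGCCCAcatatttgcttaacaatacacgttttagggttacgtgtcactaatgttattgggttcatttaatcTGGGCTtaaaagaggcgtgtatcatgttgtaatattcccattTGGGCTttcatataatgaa

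In 250 bases AT5G09510 had no site II match and AT1G04270 had 4, and AT3G04840 had 1 against 3 for AT4G34670. The leading gene also had fewer matches in RPS4 and RPS3. AT2G17360 of RPS4 had 2 against 3 each for AT5G07090 and AT5G58420. AT5G35530 of RPS3 had 1 against 3 for AT2G31610 and 4 for AT3G53870. In RPS18 the leading gene AT4G09800 and AT1G22780 had 0 and AT1G34030 had 1. The 250 bases of AT3G04840, AT4G34670 and AT2G17360 each overlap 1 other annotated gene. In RPS7, RPS9, RPS10 and RPS13 the leading gene had more. AT3G02560 of RPS7 had 4 matches against 0 for AT1G48830 and 2 for AT5G16130. The leading gene AT5G15200 of RPS9 had 4 matches and AT5G39850 had 0, AT5G41520 of RPS10 had 3 against 2 for AT4G25740 and 0 for AT5G52650, and AT3G60770 of RPS13 had 2 against 0 for AT4G00100. Over all members, a site II match lay within 250 bases upstream of 34 of 57 genes (59.6%) and a telo box upstream of 9 (15.8%), against 19.4% and 4.44% of 26709 protein-coding genes of the tables. Of the 16 members with a mean of over 20 reads in WT Col-0, 11 had a site II match and 1 had a telo box. Of the other 41, 23 and 8 did. A match describes letters only, and binding was not measured.

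The members took a small share of the pollen reads. In WT Col-0 they summed to 2692 and 3202 reads, or 0.00619% and 0.00618% of the reads over genes and TEs, and the 116 genes of the 60S subunit held 0.0212% and 0.0205%. The 11412 other short transcripts held 36.6% and 37.2%. The median member nonetheless had 4 reads in each WT Col-0 library, against 2 for the other short transcripts, and 16 members (28.1%) had over 20 reads in each library, against 26.7% and 28.1% of the other short transcripts. The members thus included about as large a share of measurable genes as other transcripts of their length. Levels per length were expressed as RPKM, reads divided by transcript length in kilobases and scaled to the library's reads over genes and TEs. The highest member, AT2G17360, exceeded 92.4% of protein-coding genes in WT Col-0 on that scale.

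**Figure D1:**
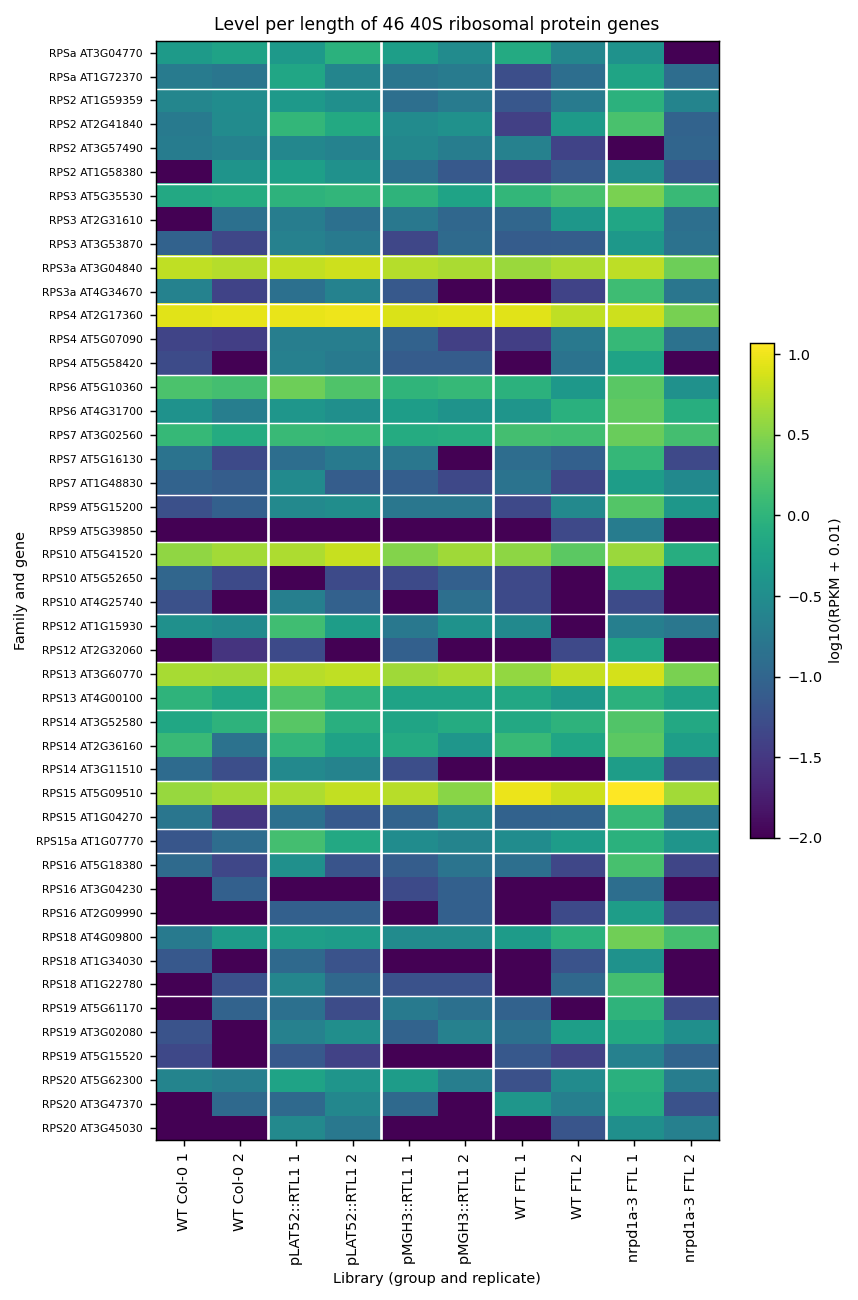
Level per length of the 46 members described singly (rows, grouped by family and ordered by WT Col-0 level) in each library (columns), as log10(RPKM + 0.01). In WT Col-0, 5 of them stand out as bright rows, from AT2G17360 at 8.48 and 9.07 RPKM to AT5G41520 at 3.65 and 4.41 RPKM, and nrpd1a-3 FTL replicate 1 is bright in rows that are dark elsewhere.

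Of the summed member level of 56.2 and 56.1 RPKM in WT Col-0, 10 genes accounted for 85.8% and 87.1%. AT2G17360, which encodes RPS4, a protein that binds ribosomal RNA, gave 447 and 569 reads from WT Col-0, 576 and 621 from pLAT52::RTL1, 500 and 519 from pMGH3::RTL1, 540 and 380 from WT FTL, and 424 and 180 from nrpd1a-3 FTL. Its level in WT Col-0 was 8.48 and 9.07 RPKM, above all other members described singly in both libraries.

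Among the members described singly, the next in level was AT3G04840, for RPS3a, with 314 and 334 reads from WT Col-0, 382 and 422 from pLAT52::RTL1, 332 and 294 from pMGH3::RTL1, 258 and 308 from WT FTL, and 360 and 156 from nrpd1a-3 FTL. It had 6.05 and 5.41 RPKM in WT Col-0. AT3G60770 (RPS13, 4.72 and 4.52 RPKM), AT5G09510 (RPS15, 3.96 and 4.59) and AT5G41520 (RPS10B, 3.65 and 4.41) were lower than AT3G04840 in both libraries. AT5G09510 overlapped AT3G60770 and AT5G41520, while AT3G60770 and AT5G41520 did not overlap. AT3G60770 gave 188 and 214 reads from WT Col-0, 259 and 279 from pLAT52::RTL1, 204 and 224 from pMGH3::RTL1, 180 and 299 from WT FTL, and 354 and 140 from nrpd1a-3 FTL. AT5G41520 gave 160 and 230, 254 and 340, 166 and 224, 190 and 102, and 211 and 44 reads in the same order. AT5G10360 of the RPS6 family was lower than all of these in both libraries, at 1.58 and 1.41 RPKM.

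At the other end, AT5G39850, AT2G09990 and AT3G45030 were at 0 in each of the WT Col-0 libraries. AT5G39850, of the RPS9 family, had 2 reads in WT FTL replicate 2, 10 in nrpd1a-3 FTL replicate 1 and 0 elsewhere. AT2G09990 (RPS16) gave 4 and 4 reads from pLAT52::RTL1, 0 and 4 from pMGH3::RTL1, 0 and 2 from WT FTL, and 26 and 2 from nrpd1a-3 FTL. AT3G45030 (RPS20) had 10 and 6, 0 and 0, 0 and 2, and 12 and 8 reads in the same groups. Outside nrpd1a-3 FTL replicate 1, none of these exceeded 10 reads.

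The read assignment limits some of these values. AT1G59359, of the RPS2 family, had the same count in all 10 libraries as its near-identical copies AT1G58684 and AT1G58983, which are not among the 57, and all its transcript windows of 100 bases were found in another gene. Reads of these copies had therefore been counted at each of them and cannot be assigned. The RPS7 gene AT3G02560 overlaps AT3G02570, which had 10735 reads over the 10 libraries, on the opposite strand, and AT4G09800, of the RPS18 family, overlaps AT4G09810, with 312 reads. How strand was used in counting is not given in the sources used here. Around AT3G60770 the adjacent intergenic intervals held 1060 reads per kilobase over the 10 libraries, against 1470 in the gene, and around AT4G00100, the second RPS13 gene, 374 against 328.

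Paralog use was compared as the share of a family's summed RPKM. Among the 17 families with several paralogs that are described singly, the same paralog led in all 10 libraries in 9, RPS3, RPS3a, RPS4, RPS7, RPS9, RPS10, RPS13, RPS15 and RPS18. In 7 of these, all but RPS7 and RPS18, the leader held at least 70.5% in every library. AT5G09510 held 91.3% to 99.5% of the RPS15 family, AT3G04840 held 82.0% to 100% of RPS3a and AT5G41520 held 81.9% to 100% of RPS10. AT2G17360 held 79.8% to 99.7% of RPS4 and AT3G60770 held 76.6% to 93.5% of RPS13. AT5G35530, for RPS3, which sits at the mRNA entry site of the ribosome, held 70.5% to 89.5% of its family. AT5G15200 held 87.9% to 100% of RPS9 on only 2 to 92 reads. In 6 of these 9 families, all but RPS3, RPS9 and RPS13, the lowest share was that of nrpd1a-3 FTL replicate 1, down to 59.2% for AT3G02560 of RPS7 and 59.0% for AT4G09800 of RPS18.

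**Figure D2:**
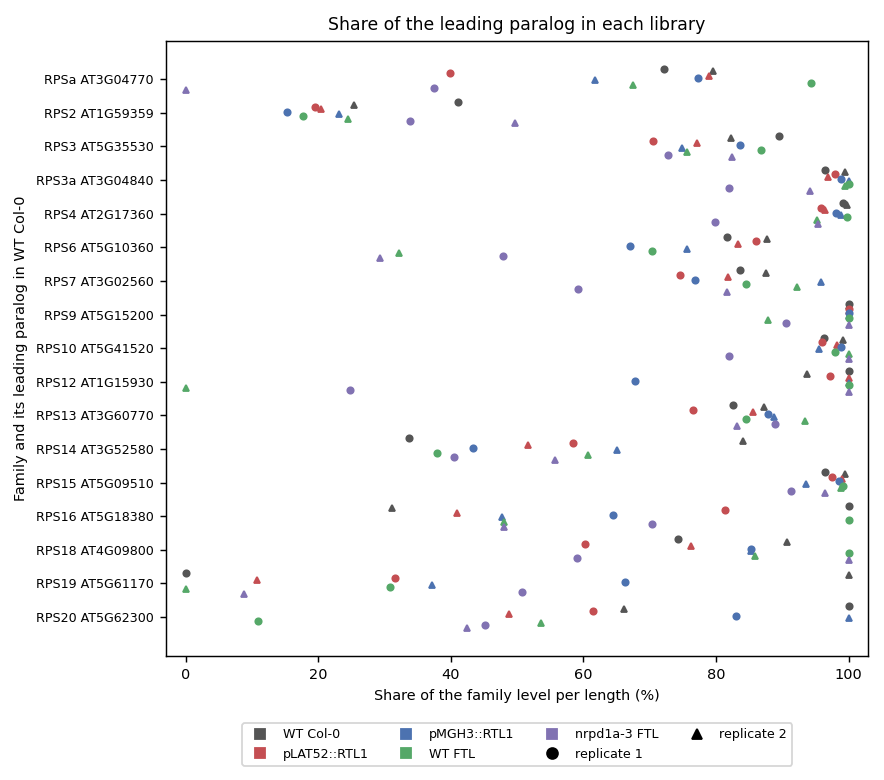
Share of the family's summed RPKM (horizontal axis, %) held by the paralog that led in WT Col-0, for 17 families with several paralogs. Each point is a library, coloured by group, with circles for replicate 1 and triangles for replicate 2, and families with few reads (RPS12, RPS19) range from 0% to 100%.

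The RPS16 gene AT5G18380 led its family in 6 libraries, on 2 to 83 reads. RPS15a was represented in the list by AT1G07770 alone, so no paralog share was computed for it.

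In 7 of the families described singly the leading paralog differed between groups. In RPSa, the family of the laminin receptor-like protein of the 40S head, AT3G04770 (RPSAb) gave 28 and 42 reads from WT Col-0, 31 and 65 from pLAT52::RTL1, 37 and 21 from pMGH3::RTL1, 54 and 18 from WT FTL, and 26 and 0 from nrpd1a-3 FTL. Its paralog AT1G72370 had 10 and 10, 43 and 16, 10 and 12, 3 and 8, and 40 and 8 reads in the same order. AT3G04770 led in 7 libraries, and AT1G72370 led in pLAT52::RTL1 replicate 1 and both nrpd1a-3 FTL libraries.

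In RPS6, whose protein is phosphorylated downstream of the TOR kinase, AT5G10360 gave 82 and 87 reads from WT Col-0, 150 and 102 from pLAT52::RTL1, 62 and 70 from pMGH3::RTL1, 58 and 26 from WT FTL, and 116 and 22 from nrpd1a-3 FTL. AT4G31700 had 18 and 12, 24 and 20, 30 and 22, 24 and 54, and 124 and 52 reads. AT5G10360 held 67.0% to 87.7% of the family in the 6 libraries of the RTL1 experiment and 29.3% to 70.3% in the 4 of the FTL experiment, with WT FTL replicate 1 on the side of the RTL1 experiment. The 2 WT FTL libraries did not lead with the same paralog.

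In RPS14, AT3G52580 gave 26 and 44 reads from WT Col-0, 85 and 40 from pLAT52::RTL1, 28 and 35 from pMGH3::RTL1, 33 and 45 from WT FTL, and 78 and 34 from nrpd1a-3 FTL. AT2G36160 had 45 and 6, 46 and 26, 33 and 18, 52 and 28, and 88 and 24 reads. The third paralog, AT3G11510, had 4 and 2, 12 and 10, 2 and 0, 0 and 0, and 22 and 2. Which of the first 2 genes led changed within 4 of the 5 groups, so the choice of leader was within the spread between replicates.

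In RPS2, AT2G41840 gave 10 and 20 reads from WT Col-0, 74 and 50 from pLAT52::RTL1, 20 and 24 from pMGH3::RTL1, 2 and 32 from WT FTL, and 104 and 6 from nrpd1a-3 FTL. AT1G59359 had 14 and 20, 30 and 22, 8 and 12, 4 and 12, and 62 and 16 reads. AT1G58380 had 0 and 24, 34 and 22, 8 and 4, 2 and 4, and 20 and 4, and AT3G57490 had 10 and 14, 16 and 14, 16 and 12, 14 and 2, and 0 and 6. AT2G41840 held the largest share in both pLAT52::RTL1 and both pMGH3::RTL1 libraries, at 37.0% to 46.6%.

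The other 3 of these families rested on few reads. In RPS12, AT1G15930 gave 14 and 14 reads from WT Col-0, 66 and 25 from pLAT52::RTL1, 8 and 18 from pMGH3::RTL1, 14 and 0 from WT FTL, and 10 and 8 from nrpd1a-3 FTL, and AT2G32060 exceeded 4 reads only in nrpd1a-3 FTL replicate 1, with 32. In RPS19, AT3G02080 gave 2 and 0 reads from WT Col-0, 10 and 15 from pLAT52::RTL1, 4 and 10 from pMGH3::RTL1, 6 and 24 from WT FTL, and 34 and 16 from nrpd1a-3 FTL, AT5G61170 had 0 to 8 reads but 46 in nrpd1a-3 FTL replicate 1, and AT5G15520 had 0 to 14. In RPS20, AT5G62300 had 2 to 36 reads and AT3G47370 had 0 to 30. Shares on such counts cannot separate groups.

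To determine whether RTL1 expression in the vegetative cell alters these transcripts, the pLAT52::RTL1 libraries were set against those of WT Col-0. RPS15A was among the members higher in pLAT52::RTL1, and no member was lower. DESeq2 gave an adjusted p-value to 27 of the 57 members, the others having too few reads, and called 2 of them higher and none lower at an adjusted p under 0.05. Of 11002 features tested, 6.53% were called higher and 7.77% lower. Among other short transcripts the shares were 8.77% and 6.08% of 3797 tested. The 2 of 27 (7.41%) is thus near the background. With unadjusted p under 0.05 there were 4 members higher and 0 lower, and edgeR called 3 higher, the third being AT2G41840 (RPS2, log2 fold change 1.46, edgeR quasi-likelihood adjusted p 0.047), and 0 lower.

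RPS15A (AT1G07770, chromosome 1, 2408203 to 2409580), for the S15a protein of the 40S body, gave 4 and 10 reads from WT Col-0, 120 and 60 from pLAT52::RTL1, 26 and 20 from pMGH3::RTL1, 26 and 42 from WT FTL, and 76 and 34 from nrpd1a-3 FTL. The WT Col-0 libraries were the lowest of the 10 and those of pLAT52::RTL1 among the highest. Normalized reads were 7.88 ± 3.98 (SD, n = 2) in WT Col-0 and 68.9 ± 31.4 (SD, n = 2) in pLAT52::RTL1, a difference of 3.11 ± 0.69 SE on the log2 scale (adjusted p 0.000131 by DESeq2).

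The calls depended on pLAT52::RTL1 replicate 1. Without it RPS15A received no adjusted p-value, at a log2 fold change of 2.56, and 0 members were called. The count also depended on scaling, since the size factors of pLAT52::RTL1 were 1.32 and 1.28, against 0.789 to 0.949 for the other 4 libraries. With scaling by total reads the median over all features, as log2 fold change, moved from -0.01 to 0.485 and that of the 27 members with a mean of at least 10 normalized reads moved from 0.03 to 0.51, with 5 members called higher. AT2G41840 was among those added. By total reads, all features split into 2874 higher and 420 lower, against 718 and 855. The 8 leaf markers, at 7.38 and 11.2 RPM against 3.68 and 4.58, moved in the same direction, and their part in the result was not tested.

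**Figure D3:**
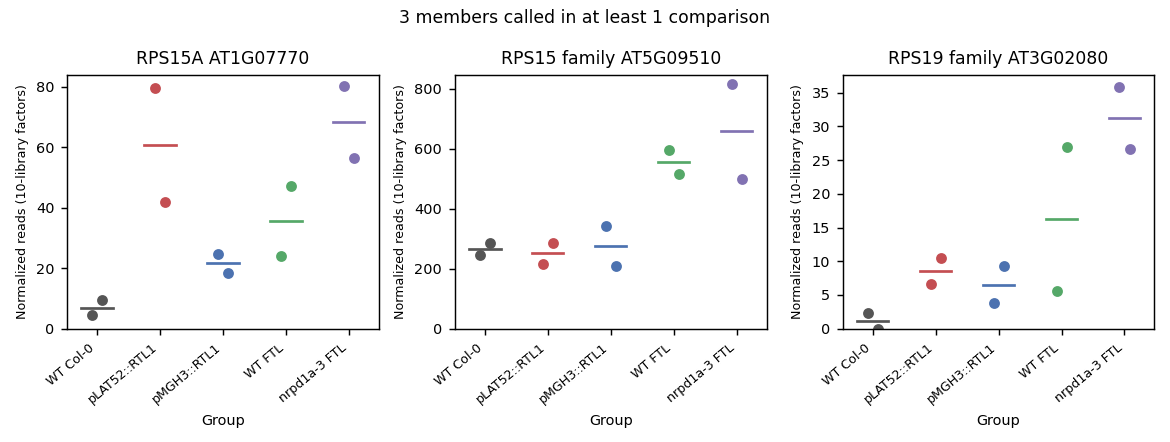
Normalized reads (vertical axis, size factors of the 10-library fit) of 3 members called in at least 1 comparison, by group. Points are libraries and lines are means of 2. RPS15A and AT3G02080 lie lowest in WT Col-0, and AT5G09510 is higher in the 4 FTL libraries than in the RTL1 experiment.

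The members were examined in pMGH3::RTL1, where RTL1 is expressed in the sperm lineage. Against WT Col-0, DESeq2 called 0 members higher and 0 lower of 55 tested, with 0.0145% and 0.00723% of 27651 features called higher and lower. Unadjusted, 1 member was higher and 0 lower at p under 0.05, and edgeR called 0 in either direction. The single gene was RPS15A, at 24.8 ± 5.25 (SD, n = 2) against 7.88 ± 3.98 (SD, n = 2) normalized reads (log2 fold change 1.63 ± 0.72 SE, adjusted p 1 by DESeq2). The summed members held 0.006% and 0.0059% of the reads in pMGH3::RTL1, against 0.00937% and 0.00896% in pLAT52::RTL1. With the size factors of the 10-library fit the difference was smaller, with sums of 2930 and 2820 normalized reads in pMGH3::RTL1 against 3190 and 3230.

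In the direct comparison of pLAT52::RTL1 with pMGH3::RTL1, DESeq2 called 1 of 22 members higher and 0 lower, with a background of 5.53% higher and 7.36% lower. edgeR also called 1 higher and 0 lower. Without pLAT52::RTL1 replicate 1, pMGH3::RTL1 replicate 1 or pMGH3::RTL1 replicate 2, 0 members were called. At an unadjusted p under 0.05, 2 were higher and 0 lower. For RPS15A the log2 fold change was 1.48 ± 0.61 SE (adjusted p 0.0975 by DESeq2). The comparisons of the RTL1 experiment share libraries, and their values are therefore given side by side only.

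Pollen lacking NRPD1A was compared with its sorted wild type. The DsRed transgene, carried by WT FTL only, differs together with the allele and cannot be told apart from it. The 57 members summed to 3667 and 3063 reads from WT FTL and to 5856 and 1915 from nrpd1a-3 FTL. Normalized with the size factors of the 10-library fit, the sums were 3390 and 3450 against 6180 and 3190, so replicate 1 of the mutant was high and replicate 2 close to the wild type. DESeq2 called 0 members higher and 0 lower of 57 tested, with 0.008% of 24995 features called higher and 0% lower. With unadjusted p under 0.05, 11 members were higher and 0 lower, and edgeR called 0 in either direction, with 6 higher at an unadjusted p under 0.05. At that p, 544 of the 24995 features and 174 of 7917 other short transcripts were higher in DESeq2. Without nrpd1a-3 FTL replicate 1, 1 member was higher and 2 were lower. With the replicate number as a block, 344 features were called higher and 63 lower, but 3 members received an adjusted p-value and 0 were called, with 5 higher at an unadjusted p under 0.05.

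The median log2 fold change of the 42 members with a mean of at least 10 normalized reads was 1.56, against 0.90 for 23 further 40S genes, 1.30 for 91 genes of the 60S subunit, 0.18 for 10 translation factors, 0.15 for 4045 other short transcripts and -0.03 for all 11275 features at that level. Without nrpd1a-3 FTL replicate 1 the median of the members was 0.02, with 21 of 42 above 0. Without replicate 2 it was 1.78, and 1 member, AT4G34670, was called (log2 fold change 6.38, DESeq2 adjusted p 0.0419). The median of the members was thus near 0 without nrpd1a-3 FTL replicate 1. The median over all features tested, with no minimum of reads, was 0.162 in the full fit and -0.438 without that library. Whether the members stayed above other features of the same level there was not tested.

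**Figure D4:**
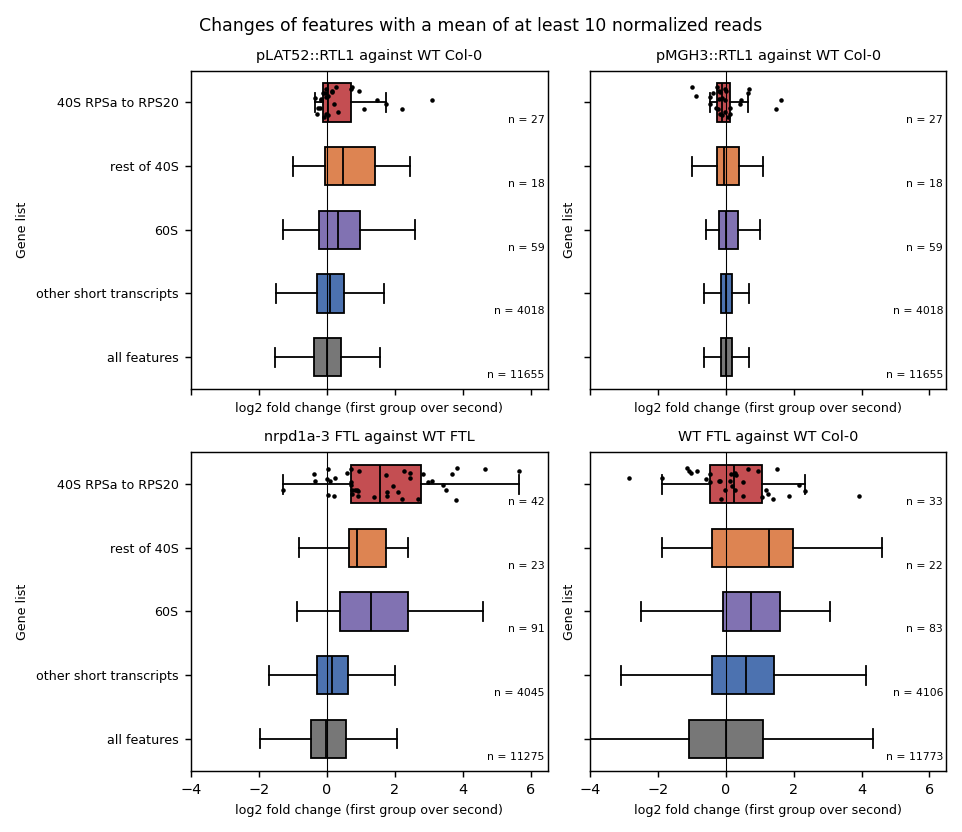
Log2 fold changes (horizontal axis) of features with a mean of at least 10 normalized reads in 4 comparisons, as boxes (quartiles, whiskers to 1.5 times the interquartile range, no outliers drawn) for 5 gene lists, with the members also as points. The members have a median of 0.03 in pLAT52::RTL1 and 1.56 in nrpd1a-3 FTL, where other short transcripts have 0.15.

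The 2 nrpd1a-3 FTL libraries differed gene by gene. In RPM, 55 of 57 members were higher in replicate 1 than in replicate 2. So were 102 of 116 60S genes, 5158 other short transcripts (2081 lower) and 15795 of all features (6299 lower). The 10-library size factors were 0.947 and 0.601, and with them AT1G15930, AT4G00100 and AT3G45030 were no longer higher in replicate 1. In RPM, 38 members (66.7%) were higher in replicate 1 than in all 9 other libraries, against 62.1% of the 60S genes, 18.4% of the other short transcripts and 9.42% of all features. In replicate 1, 45 members had over 20 reads and 2 were at 0, while in replicate 2, 19 had over 20 reads and 12 were at 0. The 8 members highest in WT Col-0 summed to 63.8 and 22.9 RPM in the 2 libraries, against 57 and 45.2 in WT FTL. The other 49 summed to 50.4 and 13, against 12.7 and 14.1. Normalized with the size factors of the 10-library fit, the 8 summed to 3450 and 2030 reads against 2770 and 2630, and the other 49 to 2730 and 1150 against 617 and 817. On either scale replicate 1 exceeded WT FTL mostly in members outside the leading 8. Replicate 2 was below WT FTL in the leading ones, by less after normalization. In the other 49 it lay between the WT FTL libraries in RPM and above both after normalization (1150 against 617 and 817).

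**Figure D5:**
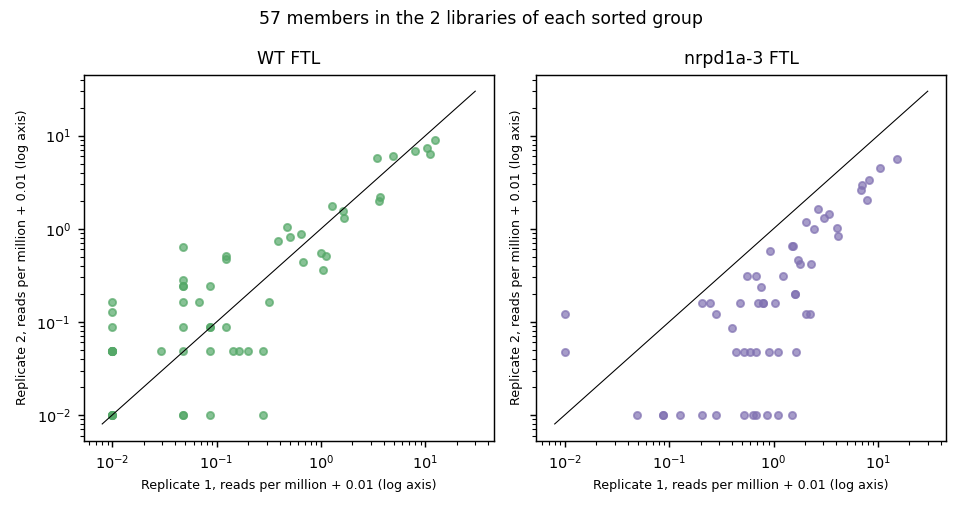
RPM (plus 0.01, log axes) of each member in replicate 1 (horizontal) and replicate 2 (vertical) of WT FTL and nrpd1a-3 FTL, with the line of equality. In nrpd1a-3 FTL, 55 of 57 members lie below the line.

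An example was AT4G34670 of the RPS3a family, with 0 and 2 reads from WT FTL and 82 and 10 from nrpd1a-3 FTL. AT5G18380 of RPS16 gave 7 and 2 reads from WT FTL and 83 and 2 from nrpd1a-3 FTL. AT5G07090 of RPS4 had 2 and 12, and 82 and 10. These genes were chosen after their values were seen. In reads of each, nrpd1a-3 FTL replicate 2 was nearer to the WT FTL libraries than to replicate 1. For AT4G34670 it still exceeded both WT FTL libraries. Replicate 1 held 601 reads of the 8 leaf markers, against 29 in replicate 2 and 102 and 40 from WT FTL. Among them were 296 of RBCS1A against 4, 16 and 4. RBCS1B (74 against 3, 76 and 33) and RBCS2B (4 against 0, 6 and 2) exceeded replicate 2 but not both WT FTL libraries. The remaining leaf markers exceeded all 3. The tapetum list of 5 genes had 7 and 2 reads. The part of leaf RNA in the member counts was not tested.

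WT FTL was also set against WT Col-0. Sorting, the DsRed transgene, the heterozygous parent plants and the experiment differ together between these groups and cannot be told apart. The 7 vegetative cell markers summed to 37400 and 36200 RPM in WT Col-0 and to 10800 and 5190 RPM in WT FTL. Most of these reads were of VGD1, with 1415303 and 1577960 against 378089 and 153118. VEX1, ANX1, ANX2 and PRK2 had fewer reads in both WT FTL libraries than in either of WT Col-0. PPME1 overlapped (50671 and 92889 against 76831 and 23422), and SYP125 was higher in WT FTL (4351 and 4834 against 11308 and 11872). The part of these markers in the results was not tested. DESeq2 called 4 of 50 members higher and 0 lower, with a background of 14.9% higher and 15.4% lower among 16312 features and of 22% and 7.63% among 5633 other short transcripts tested. At an unadjusted p under 0.05, 5 members were higher and 0 lower, and edgeR called the same 4 higher and 0 lower. AT5G09510 (chromosome 5, 2955113 to 2956673), the leading gene for RPS15, a protein near the decoding centre, gave 220 and 304 reads from WT Col-0, 328 and 410 from pLAT52::RTL1, 362 and 224 from pMGH3::RTL1, 644 and 458 from WT FTL, and 774 and 300 from nrpd1a-3 FTL. The rise from WT Col-0 to WT FTL was 1.06 ± 0.38 SE on the log2 scale (adjusted p 0.0205 by DESeq2). Both WT FTL libraries exceeded the 6 of the RTL1 experiment.

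Also called were RPS15A at 2.33 ± 0.74 SE (adjusted p 0.00806 by DESeq2) and AT3G02080 of RPS19 at 3.93 ± 1.44 SE (adjusted p 0.0248) on the log2 scale, with the read counts given above. AT3G02080 gave 2 and 0 reads from WT Col-0, which is under the floor of 3, so its fitted fold change is no measure of size. With the replicate number as a block, AT5G09510 alone of the 4 was called, while RPS15A had an adjusted p of 0.0852 and AT3G02080 of 0.149 in DESeq2. Leaving out 1 library left 1 to 3 members called higher. Without WT Col-0 replicate 1 the calls were AT3G02080 and AT2G36160, without WT Col-0 replicate 2 RPS15A and AT2G31610 of the RPS3 family, and without WT FTL replicate 2 AT5G09510 alone. Without WT FTL replicate 1 they were RPS15A, AT3G02080 and AT4G31700, and AT1G15930, with 0 reads in the remaining library, was called lower.

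Whether the members responded alike to RTL1 in the vegetative cell and to loss of NRPD1A was tested as the difference of both effects in a fit of all 10 libraries. DESeq2 called 0 members in either direction of 34 tested, with 0.574% of 11852 features higher and 2.16% lower. With unadjusted p under 0.05, 1 member was higher and 4 were lower, and edgeR called 0. RPS15A had a difference of 2.15 ± 0.97 SE on the log2 scale (adjusted p 0.315 by DESeq2). Without nrpd1a-3 FTL replicate 1, AT3G04770 was called higher (6.73 on the log2 scale, DESeq2 adjusted p 0.0454), with 0 reads left in that group.

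The other genes of the ribosome were examined by the same calls. In pLAT52::RTL1 against WT Col-0, 3 of 15 further 40S genes tested were higher and 0 lower, 6 of 53 genes of the 60S subunit were higher and 2 lower, and 5 of 10 translation factors were higher and 0 lower. In WT FTL against WT Col-0, 8 of 26, 10 of 109 and 0 of 10 were higher, and 0, 1 and 5 were lower. In pMGH3::RTL1 against WT Col-0 and in nrpd1a-3 FTL against WT FTL, 0 genes of these 3 lists were called by DESeq2 and 0 by edgeR. At an unadjusted p under 0.05 in DESeq2, 0, 3 and 1 were higher in the first and 5, 21 and 1 in the second, and 0 were lower in either. The median log2 fold change in pLAT52::RTL1, over genes with a mean of at least 10 normalized reads, was 0.47 for the further 40S genes, 0.32 for the 60S genes and 0.61 for the translation factors, against 0.03 for the members. Over all genes with reads, many of them low, it was 0.55, 0.44 and 0.61, against 0.42 for the members and 0.05 for all features. With 10-library factors, the 8 members highest in WT Col-0 summed to 2250 and 2530 in pLAT52::RTL1, against 2460 and 2500 in WT Col-0. The other 49 summed to 944 and 699, against 570 and 519.

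Among 6856 genes outside the ribosomal lists with a mean of at least 50 normalized reads, the 5 whose log2 normalized reads followed the summed member level most closely over the 10 libraries were AT3G59360 (Pearson's r 0.85), AT3G22110 (PAC1, a proteasome subunit, 0.83), AT1G10840 (TIF3H1, a subunit of initiation factor 3, 0.82), AT1G68260 (0.82) and AT2G24480 (0.82). In raw reads, each was higher in nrpd1a-3 FTL replicate 1 than in replicate 2, for instance 156 against 32 for AT3G22110. The libraries share their size factors with the members, and the values are a description over libraries of 5 groups.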

How the data were processed

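The authors aligned paired reads to the TAIR10 genome with STAR and deposited raw counts of reads per gene, TE and intergenic interval for each library, with no normalization. The counting program and its treatment of strand and of reads with several positions are not given in the sources used here. Intergenic intervals were left out of size factors and tests.

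All 58583 genes and TEs entered one DESeq2 model per fit (DESeq2 1.42.0, R 4.3.3, median-of-ratios factors, Wald test, independent filtering, Benjamini-Hochberg adjusted p under 0.05), after the study's methods. The 6 libraries of the RTL1 experiment and the 4 of the FTL experiment were fitted separately, and comparisons across them in a fit of all 10. Fold changes are unshrunken. The tests were checked on simulated counts. edgeR 4.0.16, TMM factors, total reads, size factors without the 100 most abundant features, filters, fewer or more libraries, a replicate block and leaving out each library were tried. A further fit on halved counts was chosen after seeing the data.

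RPKM used the longest RefSeq transcript of each gene. Upstream sequences come from the RefSeq TAIR10.1 genome, whose chromosomes 1 to 5 have the lengths of the tables. Genes named in full were, by rule, every called member, the 5 highest and 5 lowest members in WT Col-0, the leading paralog of each family, and all paralogs where the leader differed between groups. Some members that the rule names are not reported here singly, and counts and sums over the 57 include them. The members and lists were chosen with earlier results of these data known. Replicates are labelled as biological. No 2 libraries were merged. Within groups, chi-square per degree of freedom over members was 2.87 to 48, where counting both mates alone raises the value that sampling gives. With 2 libraries per group, an exact permutation test cannot reach 0.05 for single values, so none was used.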

Additional observations from a re-analysis of the deposited data

How the results depend on the processing

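In pLAT52::RTL1 against WT Col-0, 2 members were called higher, 5 with scaling by total reads and 0 to 2 with 1 library left out. In pLAT52::RTL1 against pMGH3::RTL1, 1 was called higher, 4 with scaling by total reads and 0 to 1 with 1 library left out. In WT FTL against WT Col-0, 4 were called higher, 2 with scaling by total reads, 2 with halved counts and 1 to 3 with 1 library left out, where 0 to 1 were lower. In nrpd1a-3 FTL against WT FTL, and in the difference of both effects, 0 members were called higher, and 0 to 1 with 1 library left out. The cause of these changes was not tested, apart from the construction of each setting. Apart from the replicate block, given next, the other counts stayed within 1.5 times their value, and no called log2 fold change turned its sign. Under the alternatives that gave an adjusted p-value, 73 called log2 fold changes kept their call and 22 lost it.

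Deviations of libraries with the same replicate number correlated at r = 0.57 over 6826 features between WT FTL and nrpd1a-3 FTL, and at -0.02, 0.15 and 0.22 among the groups of the RTL1 experiment. The study sorted both FTL genotypes at the same time from the same kind of plant, but the labels tie no number to a sort, so whether the numbers pair the libraries is unknown. With the replicate block, 1 member was called higher in WT FTL against WT Col-0, and the other counts of members called were unchanged. Over all features the block moved the calls in nrpd1a-3 FTL from 2 higher and 0 lower to 344 and 63, with 3 members tested in place of 57. The share of the leading paralog in WT Col-0 moved beyond 1 SD in 2 of 21 families with gene span in place of transcript length, to 80.5% for AT3G60770 in 1 of them, and in 0 with TPM.

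Depth limits most members: 22 and 24 of 57 had at most 3 reads in the WT Col-0 libraries, so that only large changes of such genes could be called.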
